A study of Mus musculus with 162 samples.

Results

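Zinc transporters and metallothioneins were followed through MC903-treated mice as 9 genes of the 46078 listed for each library. These were the importers Slc39a4, Slc39a2, Slc39a8, Slc39a10 and Slc39a14, the exporter Slc30a1 and the metallothioneins Mt1, Mt2 and Mt4, and all 9 were found by symbol. They were chosen from the differences between MC903 and ethanol in these same libraries, so those differences are given as a description, with no p-value, and are not a finding in themselves. The study asked how gene expression changes in skin and in the nervous system while MC903, the vitamin D analog calcipotriol, brings on an itchy skin inflammation that models atopic dermatitis. Adult male C57BL/6 mice of 8 to 12 weeks received 20 µL of 0.2 mM MC903 or the ethanol vehicle on the cheek each day, and RNA-seq was made from cheek skin and from trigeminal ganglia (TG), which hold the sensory neurons of the face. Thoracic spinal cord came from mice treated on the rostral back, where the study applied a larger volume. Wild-type mice without injection gave skin and TG at day 1 (6 hours after the first treatment) and at days 2, 5 and 8, and spinal cord at day 8. Wild-type mice at day 8 that had been injected with PBS, or with 250 µg of anti-Gr1 (aGr1), an antibody that depletes neutrophils, gave all 3 tissues. TSLPR KO mice, a knockout of the TSLP receptor gene Crlf2, gave skin and TG at days 8 and 12, and BLT1 KO mice, a knockout of the leukotriene receptor gene Ltb4r1, gave skin at day 8. The labels spell these genotypes TSLPR.KO and BLT1.KO. Each group had 2 to 8 libraries, and the 144 libraries used here leave out 18 labelled wild-type day 12.

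Zinc enters the cytosol through ZIP proteins, encoded by Slc39a genes, and leaves it through ZnT proteins, encoded by Slc30a genes. Metallothioneins are small cysteine-rich proteins that bind zinc and copper. Free zinc activates the transcription factor MTF1, which binds metal response elements in the promoters of Mt1, Mt2 and Slc30a1, and Mt1 and Mt2 also respond to glucocorticoids, cytokines and oxidants. Loss of the intestinal importer ZIP4, the product of Slc39a4, causes acrodermatitis enteropathica, an inherited dermatitis of zinc deficiency. ZIP2 (Slc39a2) is known from differentiating keratinocytes, ZIP10 (Slc39a10) from hair follicles and epidermal progenitor cells, ZIP8 (Slc39a8) also carries manganese and cadmium, ZIP14 (Slc39a14) carries zinc, iron and manganese and is induced by interleukin-6, ZnT1 (Slc30a1) is the zinc exporter of the cell surface, and Mt4 is the metallothionein of stratified epithelium.

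Each library held between 15931871 and 67342879 counts on genes. Levels are in cpm, which divides the counts of a gene by the total of its library, and log2 fold changes with their standard errors come from edgeR fits over all genes. In all 144 libraries the summed markers of keratinocytes and of sensory neurons ranked as the labelled tissue would. Keratinocyte markers lay above neuron markers in every skin library and in no TG or spinal cord library. That ranking cannot tell TG from spinal cord and would not show a mixture of tissues. Crlf2 lay at 0.0691 to 0.277 cpm in TSLPR KO skin of day 8 and at 0.405 to 1.34 cpm at day 12, against 2.24 to 15.4 cpm in wild-type skin of day 8, which did not overlap. In TG it lay at 0 to 0.228 and 0.907 to 2.06 cpm against 0.117 to 7.58 cpm, with overlap, so its level does not check those labels. Ltb4r1 overlapped between BLT1 KO skin (2.33 to 15.1 cpm) and wild-type skin (2.52 to 77.6 cpm), so its level does not check that label. Cyp24a1, the vitamin D hydroxylase that calcipotriol induces, lay at 1657 to 6748 cpm in MC903 skin and 0.213 to 31.4 cpm in ethanol skin. In TG, Cyp24a1 lay at 0 to 12.6 cpm in MC903 libraries (median 0.301) and 0 to 44.8 cpm in ethanol libraries (median 0.354). These overlapped, so its level does not check the treatment labels of TG, and the source of the high values was not tested. Of the libraries that stood apart, MC903 replicate 3 of day 2 skin held 1030.2 cpm of summed sensory neuron markers against 10.8 cpm in each other replicate, and MC903 replicates 1 and 2 of day 1 TG held 1048 and 1996 cpm of summed astrocyte markers. All samples are bulk tissue, in which fewer cells of a type and less RNA per cell cannot be told apart.

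In ethanol-treated mice 7 of the 9 genes were higher in skin than in both other tissues, Mt1 was higher in spinal cord than in skin, and for Mt2 no difference between skin and spinal cord was detected. This comparison used uninjected wild-type mice at day 8 (6 skin, 5 TG and 5 spinal cord libraries), with no MC903 library, and was not used to choose the genes, although these ethanol libraries also served as controls in the MC903 comparisons. Scaled to exon length, the skin order ran from Mt2 at 219.8 cpm per kilobase through Mt4 at 129.96, Mt1 at 104, Slc39a10 at 57.2, Slc30a1 at 39.6, Slc39a8 at 17.5, Slc39a14 at 7.13 and Slc39a2 at 2.84 to Slc39a4 at 0.293. In spinal cord Mt1 came first at 255 cpm per kilobase and Mt2 next at 213, and in TG both lay lower, at 53.1 and 61.7. Differences between genes on this scale were not tested.

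Slc39a8 had a level of 135 ± 18.5 cpm (SD, n = 6) in skin, 2.52 ± 0.626 cpm in TG and 3.99 ± 0.634 cpm in spinal cord, a log2 difference of 5.5997 ± 0.20 between skin and TG (adjusted p = 2.22e-14, edgeR quasi-likelihood test with Benjamini-Hochberg adjustment). Slc30a1 lay at 208 ± 29.8, 18.1 ± 3.49 and 32.5 ± 2.50 cpm in the same order, and Slc39a10 at 349 ± 63.8, 67.3 ± 5.42 and 84.98 ± 4.02 cpm. Both were higher in skin than in TG, by 3.40 ± 0.15 and 2.23 ± 0.13 log2. For all of these the skin libraries lay above every library of the other tissues. Mt4 held 1346 or more counts in each skin library, at most 8 in TG and at most 1 in spinal cord. Slc39a4 was low in skin too (0.910 ± 0.259 cpm) and had 0 counts in each of the 5 TG libraries, which allows up to 0.112 cpm in the shallowest of them (3 counts, counting error only). This held for day 8 only. In ethanol libraries of days 1, 2 and 5 the skin minus TG difference of Slc39a4 was 1.59 log2, against 7.85 at day 8.

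Mt1 was higher in spinal cord than in skin. It lay at 318 ± 29.03 cpm in spinal cord, 129.5 ± 59.6 cpm in skin and 66.2 ± 18.96 cpm in TG, and the skin minus spinal cord difference was -1.44 ± 0.24 log2 (adjusted p = 3.34e-05, edgeR quasi-likelihood test with Benjamini-Hochberg adjustment). Mt2 did not pass the threshold between skin and spinal cord (129.2 ± 36.9 against 125.5 ± 9.20 cpm, -0.10 ± 0.18 log2, edgeR adjusted p = 0.642), with overlapping libraries. Of the 9 genes, 9 were higher in skin than in TG, where 61.3% of 27791 genes tested passed in either direction, and 7 were higher and 1 lower in skin than in spinal cord, where 62% passed. Between spinal cord and TG, 7 were higher and 1 lower in spinal cord, beside 35.5% of all genes. That count fell to 5 when any 1 of spinal cord replicates 1 to 4 was left out, since Slc39a10, Slc39a14 and Mt4 no longer passed. The lower gene was Mt4 and the higher genes included Slc39a4, both with few or no counts in TG. The tissues were dissected from different sites and, for spinal cord, from mice treated on the back, which cannot be told apart from tissue. The labels number the libraries of a group as replicates without naming mice, so the p-values measure the spread between these libraries. Some labels carry numbers that skin and TG share, such as skin3 and TG3, and the ethanol library TG6_7 may be a pool. Whether such libraries came from the same mice is not stated, and the fit took all libraries as independent.

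**Figure D1:**
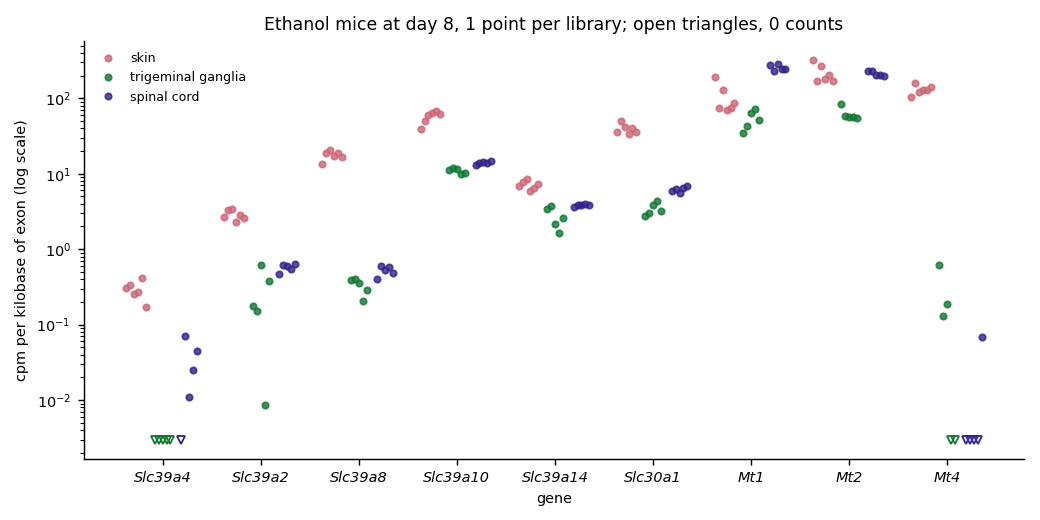
Level of each of the 9 genes in ethanol mice at day 8, in cpm per kilobase of exon on a log axis, with 1 point per library for skin (n = 6), trigeminal ganglia (n = 5) and spinal cord (n = 5), and open triangles for libraries with 0 counts. Slc39a8, Slc39a10, Slc30a1 and Mt4 of skin lie above both other tissues, while Mt1 of spinal cord lies above skin.

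The metallothionein genes lie next to each other on chromosome 8 of mm10 (GRCm38), Mt4 at 94137197 to 94139031, Mt2 at 94172664 to 94173568 and Mt1 at 94179082 to 94180327, all on the plus strand, and Slc30a1 lies on the plus strand of chromosome 1 at 191906767 to 191913247. The importers are scattered, Slc39a10 on chromosome 1 at 46807544 to 46892852, Slc39a8 on chromosome 3 at 135825279 to 135888572, Slc39a2 and Slc39a14 on chromosome 14 at 51892889 to 51896745 and 70303469 to 70351425, and Slc39a4 on chromosome 15 at 76612383 to 76617384. Their promoters are shown because MTF1 acts through the core of the metal response element, spelled TGCACNC or TGCGCNC. RefSeq (GRCm38.p6) gave promoters for 7 of the 9 genes, all but Slc39a4 and Slc39a14. The cores were searched on both strands of the 300 bases from 250 before to 50 after each RefSeq start. That start need not be the first base of the gene given above, since those coordinates come from GENCODE release M21. The 250 bases before the start follow, 5′ to 3′ on the gene's plus strand, with each core in capitals, for Mt2 (chr8:94172368-94172617), Mt1 (chr8:94178839-94179088), Slc30a1 (chr1:191906531-191906780) and Mt4 (chr8:94136954-94137203).
Mt2: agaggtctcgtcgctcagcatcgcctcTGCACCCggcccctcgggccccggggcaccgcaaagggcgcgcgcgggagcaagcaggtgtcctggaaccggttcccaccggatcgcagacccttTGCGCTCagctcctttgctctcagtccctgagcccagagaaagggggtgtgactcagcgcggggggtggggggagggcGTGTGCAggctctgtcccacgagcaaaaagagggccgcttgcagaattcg
Mt1: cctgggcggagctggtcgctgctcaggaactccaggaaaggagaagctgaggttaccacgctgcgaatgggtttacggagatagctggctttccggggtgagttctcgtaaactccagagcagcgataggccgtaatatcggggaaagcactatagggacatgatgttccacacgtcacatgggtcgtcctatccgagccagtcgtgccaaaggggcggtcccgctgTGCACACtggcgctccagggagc
Slc30a1: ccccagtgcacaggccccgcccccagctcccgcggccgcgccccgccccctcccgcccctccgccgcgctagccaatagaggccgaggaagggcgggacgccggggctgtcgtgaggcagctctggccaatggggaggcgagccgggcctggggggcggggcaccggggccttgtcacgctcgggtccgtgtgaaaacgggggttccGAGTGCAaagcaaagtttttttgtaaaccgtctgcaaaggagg
Mt4: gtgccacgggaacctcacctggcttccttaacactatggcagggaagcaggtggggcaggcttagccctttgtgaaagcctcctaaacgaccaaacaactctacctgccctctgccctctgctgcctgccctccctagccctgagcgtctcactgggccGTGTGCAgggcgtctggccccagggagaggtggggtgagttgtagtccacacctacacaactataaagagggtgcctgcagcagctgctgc
Mt2 held 4 matches, 3 of them printed and 1 after the start. Mt1 held 3 matches, of which 1 is printed and 2 lie at bases 3 to 9 and 21 to 27 after the start, and Slc30a1 held 2, of which 1 is printed. Mt4 held 1 match and 1 of the promoters of Slc39a8 held 1, whereas Slc39a2 and Slc39a10 held none. Of 32851 promoters of the same length, 25.7% held at least 1 match, 7.11% at least 2, 1.97% at least 3 and 0.517% at least 4. A match is a run of letters and not a measured binding site.

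Slc39a4 had the largest fold change of the 9 genes in uninjected wild-type skin at days 1, 2 and 5. At day 1, 6 hours after the first treatment, the 4 MC903 libraries held 53.8, 45.3, 41.6 and 53.2 cpm and the 4 ethanol libraries 1.06, 1.32, 1.17 and 1.13 cpm. The groups lay far apart, with a log2 fold change of 5.32 ± 0.11, or 39.95-fold. At day 2 the MC903 libraries held 140.4, 258 and 86.1 cpm against 1.07 and 1.76 cpm in ethanol libraries (6.76 ± 0.77). The lowest of these was replicate 3, the library with sensory neuron markers. At day 5 the MC903 level was down to 10.8, 9.20 and 9.31 cpm, still apart from 0.821, 0.442 and 0.542 cpm (3.90 ± 0.30). At day 8 it was 2.07, 2.13, 2.36, 3.01 and 6.20 cpm in 5 MC903 libraries, and ethanol libraries ran from 0.537 to 1.30 cpm. The groups did not overlap at any of the 4 time points, and MC903 means went from 48.5 to 162, 9.79 and 3.15 cpm. Salivary gland markers summed to 86.3 to 102672 cpm in ethanol and 57.9 to 509 cpm in MC903 skin of day 1, and their part in the day 1 values was not tested. Between days the change in the MC903 effect was not tested. At day 8 the fold change was 1.76 ± 0.32 with a term for the 2 sets of library names in the labels, called cohorts A and B here, 1.21 in cohort A and 2.39 in cohort B.

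Slc39a2 and Slc39a14, the importers that were higher in MC903 skin at most times, changed less. Slc39a2 lay at 17.2, 15.8, 12.8 and 15.8 cpm in MC903 and 10.2, 9.58, 8.43 and 6.86 cpm in ethanol libraries of day 1 (0.77 ± 0.11), without overlap. At day 5 it lay at 13.04, 10.99 and 7.998 against 4.07, 2.21 and 4.41 cpm (1.42 ± 0.38). At day 8 the groups overlapped (7.29 to 19.5 against 7.82 to 11.6 cpm), and the fold change was -0.19 in cohort A and 1.02 in cohort B, of opposite sign. Slc39a2 shares bases with Mettl17 on the same strand, and reads on both could not be assigned to either. Slc39a14 went from a difference of 0.37 ± 0.088 at day 1 to 1.30 ± 0.18 at day 5, when MC903 libraries held 105, 79.3 and 94.7 cpm and ethanol libraries 32.5, 41.03 and 31.99 cpm. At day 8 it lay at 127.8, 85.9, 156, 109 and 159.6 cpm, against 61.8 to 91.2 cpm in ethanol libraries (0.77 ± 0.17), and the groups overlapped only through MC903 replicate 2 of cohort A.

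**Figure D2:**
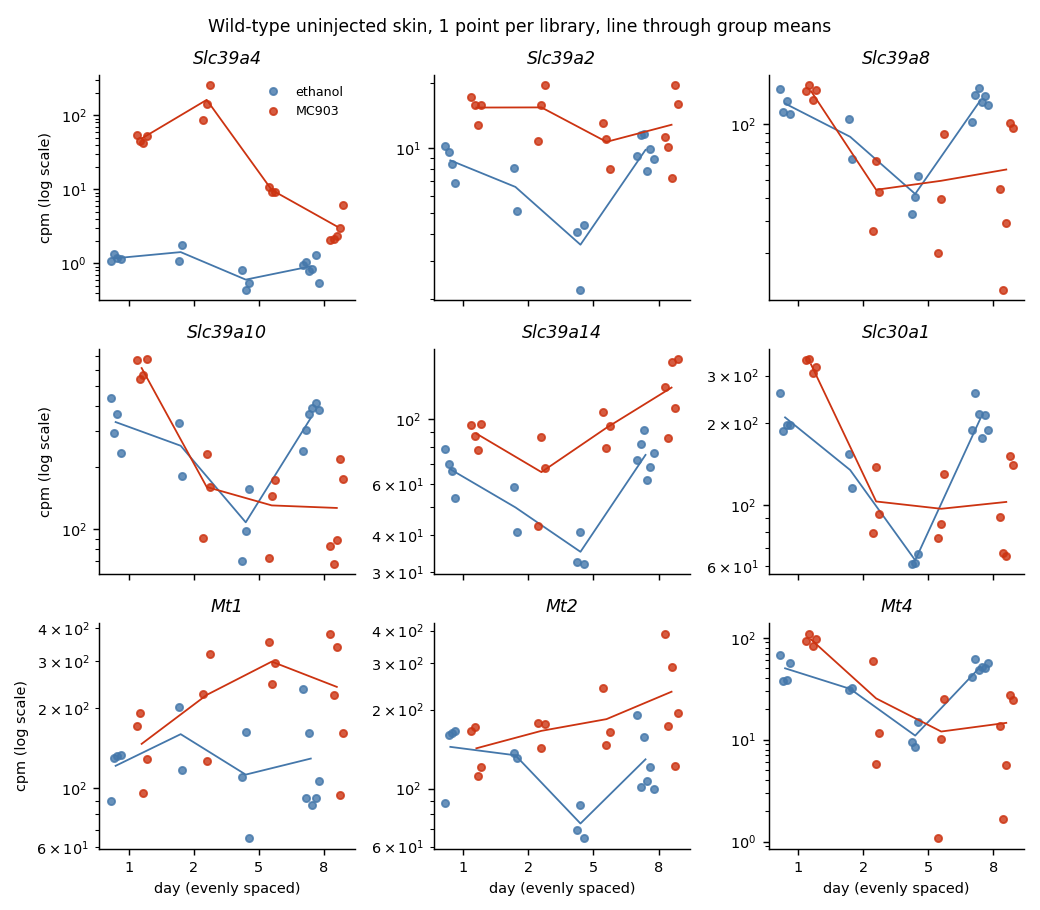
Level of each of the 9 genes in uninjected wild-type skin at days 1, 2, 5 and 8, in cpm on log axes, with 1 point per library, MC903 in red and ethanol in blue, and lines through the group means. Slc39a4 of MC903 skin peaks at day 2 at a mean of 162 cpm, and Slc39a10, Slc30a1 and Mt4 of MC903 skin lie above ethanol at day 1 and below it at day 8.

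Slc39a10, Slc30a1 and Mt4 were higher in MC903 skin at day 1 and lower at day 8. Slc39a10 lay at 667, 538, 562 and 675 cpm in MC903 and 437, 293, 366 and 235 cpm in ethanol libraries of day 1 (0.84 ± 0.16). At day 8 it lay at 82.9, 67.7, 88.4, 219 and 176 cpm against 242 to 410.5 cpm (-1.503 ± 0.20). Neither day showed overlap. Slc30a1 went from 329 against 211 cpm at day 1 (0.60 ± 0.14) to 103 against 208 cpm at day 8 (-1.04 ± 0.23), and Mt4 from 96.0 against 50.1 cpm (0.87 ± 0.22) to 14.6 against 51.7 cpm (-1.99 ± 0.47). Slc39a8 overlapped at day 1 (0.18 ± 0.11) and was lower in every MC903 library of day 8 (12.7 to 102 against 103 to 156 cpm, -1.40 ± 0.38). The day 8 differences were larger in cohort A than in cohort B, -2.25 and -0.42 for Slc39a8, -1.96 and -0.98 for Slc39a10, -1.61 and -0.38 for Slc30a1 and -2.87 and -0.99 for Mt4, and whether the cohorts differ was not tested.

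Keratins of the hair shaft moved with these same 4 genes and, in ethanol skin, with Slc39a2 and, at a lower Pearson r, Slc39a14. The summed level of Krt31, Krt33a and Krt35 (3 of the 4 listed, since Krt85 had no row) lay at 3638 to 5842 cpm in MC903 and 1465 to 4862 cpm in ethanol libraries of day 1, and at 88.5 to 2121 and 2058 to 6341 cpm at day 8, with none of the 3 at 0. Across the 30 ethanol libraries of skin, the log2 level of Slc39a8 followed that sum with Pearson r = 0.88 and Spearman rho = 0.95, Slc39a10 with r = 0.83, Slc30a1 with r = 0.83 and Mt4 with r = 0.89. Across the 31 MC903 libraries r was 0.92, 0.80, 0.82 and 0.85 for the same genes. After group means were subtracted r stayed at 0.82, 0.70, 0.75 and 0.83 in ethanol libraries. Leaving out the 2 libraries farthest from the median sum gave ethanol values of 0.92, 0.85, 0.88 and 0.87 in the same order. Slc39a2 followed the sum in ethanol libraries too (r = 0.80, rho = 0.91, 0.89 without the 2 farthest libraries and 0.72 with group means subtracted) and less in MC903 libraries (r = 0.63, and 0.24 with group means subtracted). For Slc39a14 the ethanol values were r = 0.58, rho = 0.82, 0.68 without the 2 farthest libraries and 0.53 with group means subtracted. In MC903 libraries its r was -0.41, and 0.21 with group means subtracted. Slc39a4 (-0.25 in ethanol and 0.33 in MC903 libraries) and Mt2 (0.22 and -0.65) had a lower r in ethanol libraries than the genes above. With group means subtracted, r was -0.25 and 0.41 for Slc39a4 and 0.49 and -0.15 for Mt2. In ethanol libraries Mt2 then came near Slc39a14. The libraries fall into 9 groups in each treatment, both values of a point come from 1 library and share its depth, and no p is given. The part of hair shaft cells in the levels of these genes was not tested. Basal keratinocyte markers (Krt5, Krt14 and Trp63) summed to 9600.3 to 19028 cpm in MC903 and 3334 to 4969 cpm in ethanol skin of day 8, and suprabasal markers (Krt1, Krt10, Flg2 and Ivl) to 1594 to 3743 and 2246 to 4093 cpm.

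**Figure D3:**
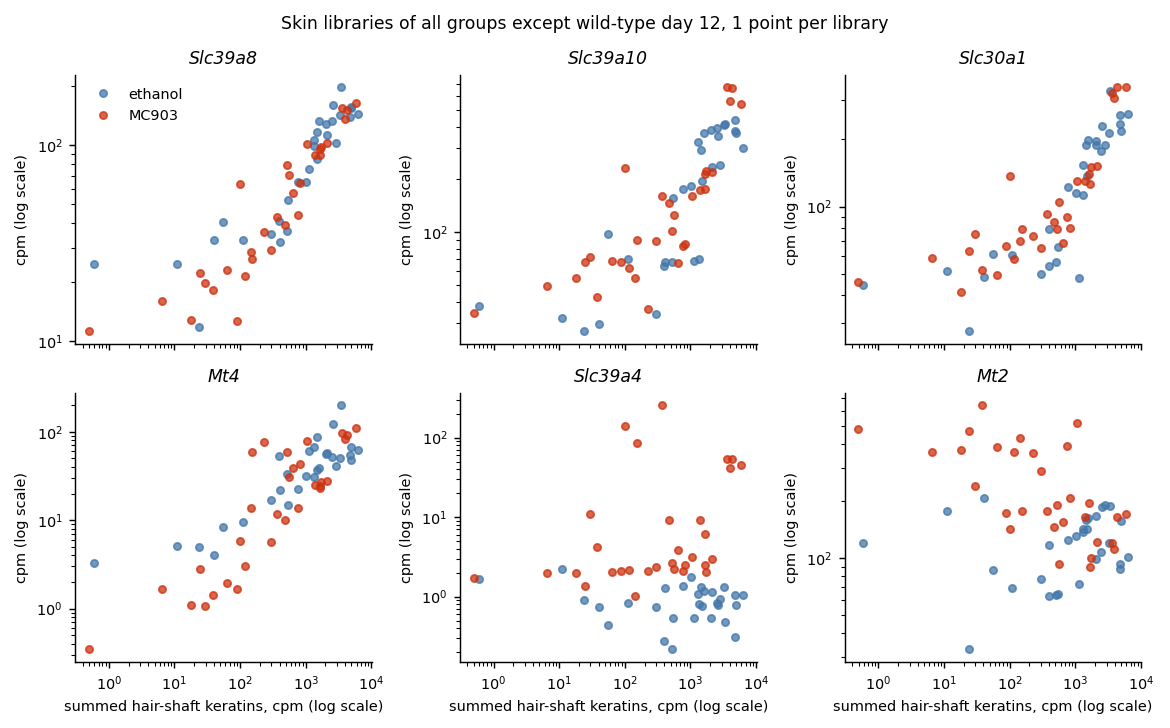
Level of 6 genes against the summed level of the hair-shaft keratins Krt31, Krt33a and Krt35, both in cpm on log axes, with 1 point for each of 61 skin libraries, MC903 in red and ethanol in blue. Slc39a8, Slc39a10, Slc30a1 and Mt4 climb with the keratins in both treatments. Slc39a4 overlaps between the treatments at its low end, from 1.03 cpm in MC903 replicate 1 of PBS mice to 2.22 cpm in ethanol replicate 3 of BLT1 KO mice.

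Mt1 and Mt2 overlapped between the treatments at day 1 and separated them at day 5. At day 1, Mt1 lay at 96.0 to 191 cpm in MC903 and 90.02 to 134 cpm in ethanol skin (0.21 ± 0.20), and Mt2 at 112.02 to 171 and 87.7 to 166 cpm (-0.074 ± 0.22). At day 5 the MC903 libraries held 356, 246 and 297 cpm of Mt1 against 109.9, 163 and 64.9 cpm (1.36 ± 0.25), and 241, 146 and 164 cpm of Mt2 against 69.7, 86.3 and 64.6 cpm (1.22 ± 0.22). Neither gene overlapped at that day. At day 8 both overlapped between the groups, Mt1 at 382, 225, 341, 94.4 and 162 cpm against 86.7 to 237 cpm (0.75 ± 0.23) and Mt2 at 390.0, 174, 289.8, 121.6 and 194 cpm against 99.3 to 191 cpm (0.77 ± 0.22). Within cohorts the day 8 fold change was 0.95 and 0.46 for Mt1 and 0.93 and 0.56 for Mt2, cohort A first, and neither gene passed the threshold in either cohort alone.

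Counted over the 9 genes at the adjusted p threshold of 0.05, 6 passed at day 1, all higher in MC903 (Slc39a4, Slc39a2, Slc39a10, Slc39a14, Slc30a1 and Mt4), where 13% of 24749 genes tested passed. At day 5, 5 passed, all higher (Slc39a4, Slc39a2, Slc39a14, Mt1 and Mt2), beside 14.9% of 24226 genes, and at day 8, 4 passed as higher and 4 as lower, beside 23.4% of 26175. Since the genes were selected on these contrasts, nothing is read from these counts. At day 2, edgeR called 0 genes (0% of 24580), with 1190 at an unadjusted p under 0.05 and 280 called by DESeq2. Without MC903 replicate 3 of day 2, Slc39a4 passed there. The day 1 count was 3 (Slc39a4, Slc39a2 and Slc39a10) without MC903 replicate 1, MC903 replicate 2, ethanol replicate 2 or ethanol replicate 3. The median log2 fold change of the 9 genes was 0.60, 0.24, 1.22 and 0.37 at days 1, 2, 5 and 8, and that of all genes tested 0.0013, 0.086, -0.030 and -0.033.

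In skin of injected mice at day 8, Mt1 and Mt2 were higher in MC903 libraries under both injections. PBS-injected mice held 349 and 376 cpm of Mt1 in MC903 and 124.03, 107 and 104 cpm in ethanol libraries (1.73 ± 0.19), and 434 and 516 against 186, 117.4 and 188 cpm of Mt2 (1.57 ± 0.27). Mice injected with aGr1 held 405, 619, 308 and 511 against 72.8, 41.5, 101 and 53.1 cpm of Mt1 (2.46 ± 0.25), and 469.5, 647, 363 and 483 against 63.2, 32.9, 143 and 64.1 cpm of Mt2 (2.41 ± 0.33). None of these 4 pairs of groups overlapped. Slc39a14 differed in the same direction in aGr1 mice, at 191, 240.0, 111 and 196 against 31.2, 18.5, 38.7 and 18.6 cpm (2.46 ± 0.24), and in PBS mice at 85.2 and 139 against 62.3, 23.6 and 72.7 cpm (1.13 ± 0.48). Mt4 in aGr1 mice was 2.83, 1.42, 1.66 and 0.347 cpm against 22.01, 4.97, 87.99 and 33.5 cpm (-4.81 ± 0.80), and hair-shaft keratins there summed to 0.496 to 38.3 cpm against 23.8 to 1489 cpm. Salivary gland markers, a sign of tissue under the cheek skin, summed to 16.3 to 9472 cpm in MC903 and 39994 to 272621 cpm in ethanol libraries of aGr1 mice, and their part in the differences was not tested. Whether the MC903 effect differs between aGr1 and PBS mice was not tested.

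In the PBS comparison, 2 of the 9 genes passed the threshold (Mt1 and Mt2), beside 3.99% of 24416 genes. That count was 0 without MC903 replicate 1, MC903 replicate 2 or ethanol replicate 1, and 1 without ethanol replicate 3. In the aGr1 comparison 4 passed as higher and 2 as lower, beside 32.6% of 25287 genes.

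In TSLPR KO skin none of the 9 genes passed at day 8 and 3 passed at day 12, and whether the MC903 effect differs from wild type was not tested. In TSLPR KO skin at day 8, with 3 MC903 and 2 ethanol libraries, Mt1 lay at 86.3, 71.95 and 93.4 against 119.8 and 81.5 cpm (-0.24 ± 0.23) and Mt2 at 93.1, 89.8 and 99.8 against 124.3 and 93.0 cpm (-0.18 ± 0.21), with overlap in both. Slc39a4 (2.21, 2.53 and 2.03 against 1.35 and 0.312 cpm, 1.48 ± 0.56) and Slc39a2 (0.71 ± 0.24) did not overlap. With groups of 3 and 2 libraries, nothing is read from that. None of the 9 passed by edgeR, beside 2.45% of 24292 genes (594 genes, with 3631 at an unadjusted p under 0.05 and 1313 called by DESeq2). At day 12 the TSLPR KO MC903 libraries held 207, 189.7, 358 and 155 cpm of Mt2 against 77.3, 143 and 73.1 cpm (1.07 ± 0.28). They held 2.50, 2.62, 2.10 and 3.83 against 0.742, 0.807 and 0.532 cpm of Slc39a4 (1.81 ± 0.30) and 16.3, 13.8, 11.6 and 18.7 against 3.15, 8.12 and 5.49 cpm of Slc39a2 (1.28 ± 0.28). Those 3 genes passed, beside 10% of 25432 genes, and Slc39a4 alone passed without MC903 replicate 1 or ethanol replicate 1.

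BLT1 KO skin at day 8 showed a low Slc39a10 in both treatments, at 68.1, 54.5 and 61.995 cpm in MC903 and 37.5, 29.6 and 32.4 cpm in ethanol libraries. MC903 was the higher group (0.85 ± 0.13), the opposite of wild-type skin at day 8. Low levels also occurred outside this genotype. In wild-type skin of aGr1 mice Slc39a10 lay at 67.1, 42.6, 49.3 and 34.4 cpm in MC903 libraries. In aGr1 ethanol libraries it lay at 67.6, 27.02, 195 and 67.2 cpm, and in TSLPR KO ethanol skin of day 12 at 34.04, 70.4 and 68.4 cpm. Hair-shaft keratins in BLT1 KO ethanol libraries summed to 0.594 to 40.8 cpm, and to 18.2 to 117.2 cpm in BLT1 KO MC903 libraries. The ethanol sums lay under the 2058 to 6341 cpm of uninjected wild-type ethanol skin at day 8. Their part in the result was not tested. Slc39a14 lay at 228, 187 and 149.8 against 43.5, 49.5 and 23.02 cpm (2.25 ± 0.26) and Mt2 at 387, 372 and 364 against 120.03, 209 and 178 cpm (1.11 ± 0.20), both without overlap. Mt1 overlapped (304 to 485 against 225 to 354 cpm, 0.39 ± 0.22), and Slc39a4 overlapped as well (1.99 to 2.15 against 0.744 to 2.22 cpm). In all, 4 of the 9 passed as higher (Slc39a2, Slc39a10, Slc39a14 and Mt2), beside 28.6% of 25771 genes.

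**Figure D4:**
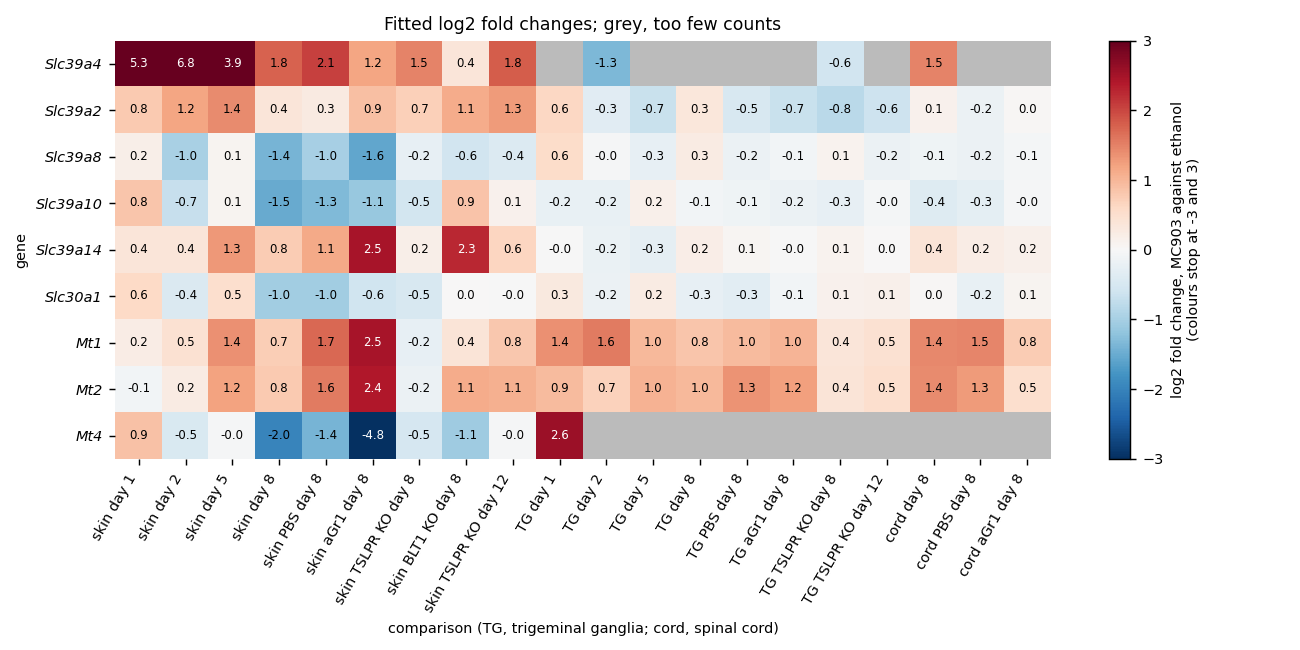
Fitted log2 fold change of MC903 against ethanol for each of the 9 genes (rows) in each of the 20 comparisons (columns: skin, trigeminal ganglia as TG, spinal cord as cord), from blue (lower in MC903) to red (higher), with grey where counts were too few to fit or to read. Slc39a4 of skin is darkest at days 1, 2 and 5, with 5.32, 6.76 and 3.90, and Mt1 and Mt2 are above 0 in every TG and cord comparison with all libraries in the fit.

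In TG, which lie away from the treated skin, the fold changes of Mt1 and Mt2 were above 0 in each of the 8 comparisons with all libraries in the fit, although that of Mt2 at day 2 was below 0 without ethanol replicate 1 (-0.16, from 0.69). In PBS-injected mice at day 8, MC903 libraries held 113.1, 102, 104 and 70.3 cpm of Mt1 and ethanol libraries 63.96, 43.8 and 42.6 cpm (0.96 ± 0.15). Mt2 lay at 109.7, 97.6, 84.4 and 58.01 against 45.5, 31.4 and 27.03 cpm (1.34 ± 0.19), and neither gene overlapped. In aGr1 mice Mt1 lay at 142, 84.9, 70.2 and 100.3 against 54.1, 46.97, 46.8 and 49.4 cpm (1.02 ± 0.17) and Mt2 at 133.4, 75.3, 79.4 and 109.6 against 60.7, 31.4, 31.6 and 46.4 cpm (1.24 ± 0.22), again without overlap. Markers of satellite glia summed to 258 to 370.0 cpm in MC903 and 243 to 271 cpm in ethanol ganglia of PBS mice, and their part was not tested. Slc30a1 was slightly lower in PBS mice (15.9 against 19.9 cpm, -0.32 ± 0.088), and in aGr1 mice it overlapped (-0.081 ± 0.13). At the TG threshold of 0.1, 3 of the 8 genes that could be tested passed in PBS mice (Mt1 and Mt2 higher, Slc30a1 lower), beside 3.36% of 23708 genes, and 2 of 7 in aGr1 mice (Mt1 and Mt2), beside 1.88% of 24233. In PBS mice Slc30a1 no longer passed when any 1 of the 3 ethanol replicates or MC903 replicates 1 to 3 was left out, and without MC903 replicate 4 both Slc30a1 and Slc39a10 passed.

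Uninjected mice gave wider spreads. At day 8 Mt1 lay at 165, 72.3, 86.01, 96.1 and 161 cpm in MC903 and 43.8, 53.8, 78.8, 91.05 and 63.6 cpm in ethanol libraries (0.84 ± 0.23), and Mt2 at 113.3, 54.8, 39.5, 42.9 and 109 and 49.2, 33.9, 33.4, 32.8 and 32.1 cpm (0.98 ± 0.26), with overlap in both. At day 5, Mt1 was 159, 149 and 188 against 72.9, 112.8 and 76.9 cpm (0.97 ± 0.18), without overlap. None of the 9 passed by edgeR at either day, beside 0.16% of 25600 genes at day 8 and 0.00823% of 24300 at day 5. At day 5 all 3 pairs of same-numbered libraries deviated together, and blocking on that number raised the genes called from 2 to 54, Mt1 among them. At day 1, Mt1 lay at 345, 255, 96.1 and 92.4 against 49.4, 71.5, 62.4 and 99.8 cpm (1.37 ± 0.42), and the MC903 libraries with the high values were replicates 1 and 2, the same that held more astrocyte marker RNA. The part of glial tissue in those values was not tested. At day 2 ethanol replicate 1 was far below its partner (10.98 and 74.8 cpm of Mt1 and 6.79 and 67.9 cpm of Mt2), and MC903 libraries held 72.6, 112.5 and 191 cpm of Mt1. The fold change of Mt1 there was 1.57 with all libraries, 0.78 without ethanol replicate 1 and 3.47 without ethanol replicate 2, and that of Mt2 0.69, -0.16 and 3.08. Without ethanol replicate 2, which leaves the low library as the only control, 4 of the 9 genes passed (Slc39a4, Slc39a10, Mt1 and Mt2).

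At days 1 and 2 edgeR called no gene in TG (0% of 25319 and 0% of 24092), with 2034 and 1527 genes at an unadjusted p under 0.05 and 78 and 65 called by DESeq2. TSLPR KO ganglia at day 8 also gave 0 genes by edgeR (0% of 23402), with 1886 at an unadjusted p under 0.05 and 185 by DESeq2. There Mt1 lay at 63.9 and 99.7 against 55.2 and 77.8 cpm (0.36 ± 0.23). At day 12 it lay at 119.7, 87.1, 99.4 and 109 against 55.1, 64.5, 69.1 and 118.4 cpm (0.47 ± 0.20), overlapping through ethanol replicate 4. None of the 9 passed at day 12 by edgeR, beside 0.304% of 25969 genes (79 genes, 1874 at an unadjusted p under 0.05, 260 by DESeq2). Without that ethanol replicate, Mt1 passed. In this comparison all 4 same-numbered pairs deviated together, and the fit with the replicate block called 356 genes and still none of the 9. Of the importers in TG, Slc39a10 and Slc39a14 were well counted and their fold changes lay between -0.27 and 0.20 over the 8 comparisons. Slc39a4 and Mt4 held at most 42 and 110 counts in any TG library, and no fold is given for them in the text.

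Mt1 and Mt2 separated the treatments in spinal cord. In uninjected mice at day 8 the 4 MC903 libraries held 788, 614, 632 and 1382 cpm and the 5 ethanol libraries 346, 286, 351, 304 and 300.1 cpm (1.44 ± 0.22). Mt2 lay at 328, 292, 282 and 436 against 135, 136, 118.1, 121.2 and 117.4 cpm (1.42 ± 0.14). The groups did not overlap for either gene, and replicate 4 was the highest in both. Without it the fold change of Mt1 was 1.06. Slc39a14 was also higher (47.3 to 56.2 against 38.1 to 41.3 cpm, 0.40 ± 0.074) and Slc39a10 lower (53.1 to 71.4 against 78.4 to 89.4 cpm, -0.40 ± 0.076), without overlap. These 4 of 8 genes tested passed at 0.05, beside 12.2% of 25585 genes. Marker RNA of microglia was lower in the same MC903 libraries without overlap, while that of astrocytes overlapped. Microglia markers (Tmem119 and P2ry12) summed to 9.72 to 20.003 cpm in MC903 and 37.7 to 43.97 cpm in ethanol libraries, and astrocyte markers (Gfap, Aqp4 and Slc1a2) to 4631 to 5158 and 5007 to 5588 cpm, with no marker at 0. Their part in the result was not tested.

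In aGr1-injected mice the spinal cord libraries of each treatment lay closer together, with Mt1 at 434 to 615 cpm in 8 MC903 libraries (median 492) and 259 to 315 cpm in 6 ethanol libraries (median 304), a fold change of 0.76 ± 0.063. Mt2 lay at 253 to 317 against 179 to 228 cpm (0.50 ± 0.058). Neither gene overlapped and both passed, as 2 of 8 genes tested, beside 11.3% of 27649 genes. PBS-injected mice had 2 libraries per treatment, with 577 and 242 against 131.5 and 158 cpm of Mt1 (1.46 ± 0.35) and 362 and 166 against 98.3 and 111 cpm of Mt2 (1.29 ± 0.31). The MC903 libraries of PBS mice lay above both ethanol libraries but far apart from each other. There edgeR called 0 genes (0% of 24573), with 1571 at an unadjusted p under 0.05 and 176 by DESeq2, and leaving out 1 library at a time, which leaves 1 library in a group, called 1 to 5 of the 9 genes. Without MC903 replicate 2 the 5 were Slc39a10, Slc39a14, Slc30a1, Mt1 and Mt2. Without ethanol replicate 1 only Mt1 passed, and without ethanol replicate 2 or MC903 replicate 1 both Mt1 and Mt2 passed.

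**Figure D5:**
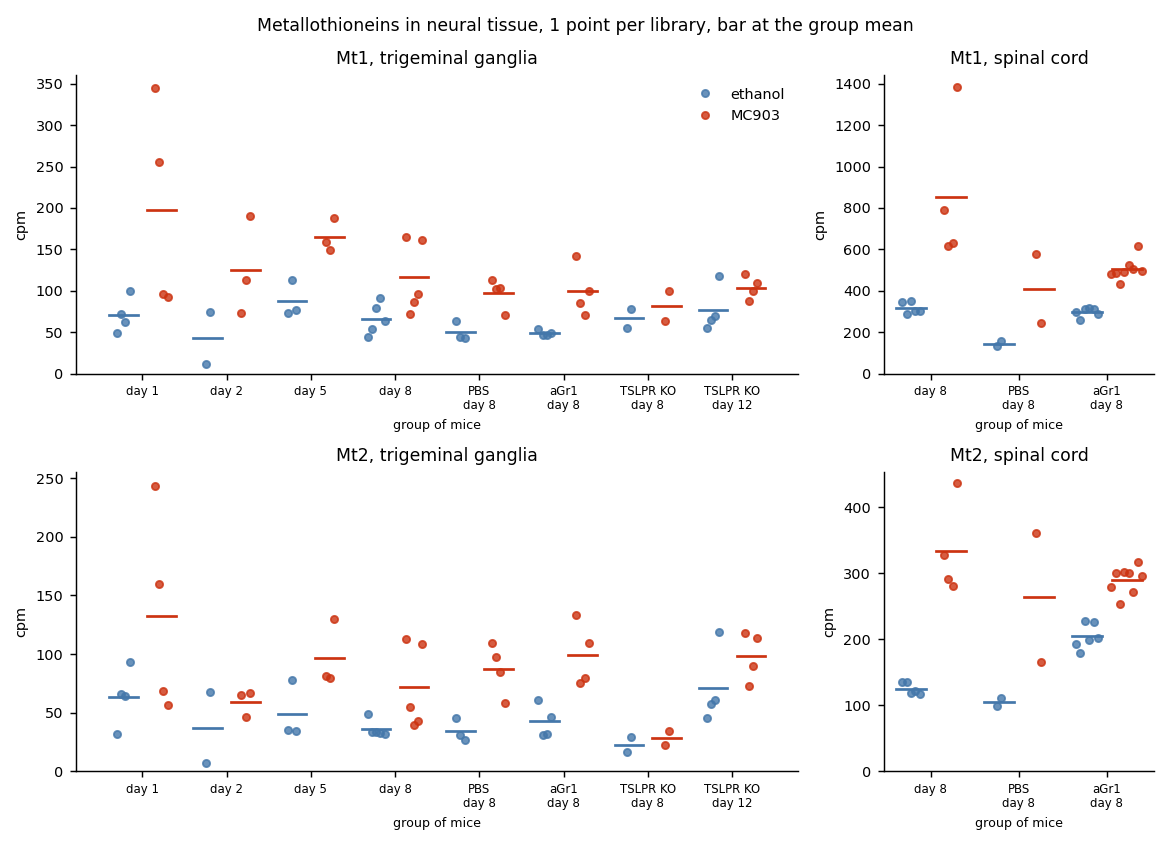
Mt1 and Mt2 in trigeminal ganglia (left) and spinal cord (right), in cpm on axes that start at 0, for every group of mice, with 1 point per library, MC903 in red, ethanol in blue and a bar at each group mean. In spinal cord every MC903 point lies above every ethanol point of the same injection, and in ganglia this is so in PBS and aGr1 mice and at day 5.

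Without MC903, 4 of the 9 genes differed in spinal cord between mice injected with aGr1 and with PBS. This comparison of aGr1 with PBS in ethanol mice at day 8 contains no MC903 library, although the same ethanol libraries served as controls above. Mt1 was higher in 6 aGr1 libraries (259 to 315 cpm) than in 2 PBS libraries (131.5 and 158 cpm), by 0.97 ± 0.080 log2 (edgeR quasi-likelihood adjusted p = 1.09e-05, Benjamini-Hochberg). Mt2 was higher by 0.89 ± 0.083 (edgeR adjusted p = 1.67e-05). Slc39a10 was lower, at 69.9 to 80.5 against 112.3 and 100.1 cpm (-0.53 ± 0.060, edgeR adjusted p = 4.8e-05), as was Slc30a1, at 28.9 to 32.3 against 39.4 and 40.1 cpm (-0.45 ± 0.063, edgeR adjusted p = 0.000202). None of the 4 overlapped. In uninjected ethanol mice, outside this fit, Mt1 lay at 286 to 351, Slc39a10 at 78.4 to 89.4 and Slc30a1 at 32.5 ± 2.50 cpm (SD). These levels were nearer to the aGr1 than to the PBS libraries. Mt2 lay there at 117.4 to 136 cpm, nearer to the PBS (98.3 and 111 cpm) than to the aGr1 libraries (179 to 228 cpm). In this comparison 29.8% of 26240 genes passed, so 4 of 8 genes tested are read against that share. With 2 PBS libraries, the antibody and any other difference between those mice cannot be told apart.

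In TG, Slc30a1 fell from 21.2, 19.7 and 18.6 cpm in PBS to 12.8, 14.98, 11.9 and 12.6 cpm in aGr1 mice (-0.59 ± 0.10, edgeR adjusted p = 0.0119) and Slc39a10 from 60.2, 63.2 and 63.2 to 51.002, 55.4, 48.4 and 53.8 cpm (-0.25 ± 0.076, edgeR adjusted p = 0.0648), while Mt1 did not pass (-0.0094 ± 0.13, edgeR adjusted p = 0.978). These 2 of 7 genes stood beside 15.2% of 23802 genes. Slc30a1 alone passed without any 1 of the 3 PBS replicates, aGr1 replicate 1 or aGr1 replicate 3, and 4 genes passed without aGr1 replicate 2 (Slc39a10, Slc39a14, Slc30a1 and Mt2). In skin 0 of the 9 genes passed by edgeR (adjusted p from 0.248 to 0.402), beside 0.147% of 25219 genes (37 genes, 4373 at an unadjusted p under 0.05, 1149 by DESeq2). Hair-shaft keratins in these skin libraries summed to 23.8 to 1489 cpm in aGr1 and 396 to 3424 cpm in PBS mice, and their part was not tested.

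The other members of both transporter families and Mt3 were counted as a list of 19 genes, of which 17 to 19 could be tested. In uninjected wild-type skin, 1 was higher and 1 lower of 17 at day 1 (beside 13% of all genes), 0 changed at day 2 (where edgeR called no gene), 3 of 17 were higher at day 5 (14.9%), and 4 were higher and 1 lower of 18 at day 8 (23.4%). The day 1 genes were the exporter Slc30a9 (163 against 120.6 cpm, 0.39 ± 0.085 log2) and the ubiquitous importer Slc39a1 (93.8 against 119.6 cpm, -0.39 ± 0.11). At day 5 the vesicular exporter Slc30a2 rose (13.1 against 2.56 cpm, 2.26 ± 0.29), as did the importer Slc39a6 (118.4 against 48.3 cpm, 1.15 ± 0.29) and Slc30a10, a manganese exporter at a low level (0.950 against 0.0375 cpm, 4.42 ± 0.90). At day 8 Slc30a2 was higher again (6.88 against 2.30 cpm, 1.502 ± 0.32), as was Slc30a7, which loads zinc into the secretory pathway (75.1 against 59.2 cpm, 0.37 ± 0.10). Slc30a10 and Slc39a12 were higher at under 1 cpm, and Slc30a3 was lower (0.443 against 2.89 cpm, -2.62 ± 0.69). In TSLPR KO skin 2 of 18 were higher at day 8 (beside 2.45% of all genes) and 2 of 17 at day 12 (10%), and Slc30a2 was among both (7.42 against 2.68 cpm, 1.49 ± 0.30 at day 8 and 5.01 against 1.42 cpm, 1.64 ± 0.32 at day 12). Elsewhere 5 were higher and 2 lower of 17 in aGr1 skin (32.6%), 1 and 1 of 18 in BLT1 KO skin (28.6%) and 0 in PBS skin by edgeR (3.99%). In TG 2 were higher in PBS mice (3.36%) and none passed by edgeR in the 7 other comparisons, and in spinal cord 1 was lower in uninjected (12.2%) and 1 in aGr1 mice (11.3%).

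Among 6 genes of metal and oxidant sensing (Mtf1, Nfe2l2, Keap1, Hmox1, Nqo1 and Gclm), Nfe2l2, which encodes the oxidant-responsive factor NRF2, rose at day 5 (192 against 64.8 cpm, 1.49 ± 0.15 log2) and day 8 (177 against 65.3 cpm, 1.43 ± 0.14), and Hmox1, heme oxygenase, at day 5 (109 against 31.5 cpm, 1.72 ± 0.20). In all, 2 of the 6 passed as higher at day 5 (beside 14.9% of all genes), 2 at day 8 (23.4%), 3 in aGr1 skin (32.6%) and 4 in BLT1 KO skin (28.6%). Mtf1 passed in none of the 9 skin comparisons (fold changes -0.074 to 0.33). Of 11 genes of iron, copper and other metal transport and storage, 1 was higher and 2 lower at day 1 (beside 13%), and 2 were higher and 1 lower at day 8 (23.4%). At day 1 the ferritin heavy chain Fth1 fell (461 against 701 cpm, -0.66 ± 0.17) and the transferrin receptor Tfrc rose (188 against 109 cpm, 0.76 ± 0.16), and at day 8 the iron exporter Slc40a1 fell (175 against 463 cpm, -1.54 ± 0.39). Of 4 vitamin D genes Cyp24a1 rose at day 1 (1803 against 5.42 cpm, 8.38 ± 0.50) and 3 fell, the vitamin D receptor Vdr (263 against 323 cpm, -0.32 ± 0.094), its partner Rxra (168 against 229 cpm, -0.48 ± 0.081) and the activating hydroxylase Cyp27b1 (1.13 against 3.37 cpm, -1.58 ± 0.31).

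Genes that glucocorticoids induce (Fkbp5, Tsc22d3, Per1, Zbtb16, Sgk1 and Dusp1) were counted because glucocorticoids are known to induce Mt1 and Mt2 as well. In spinal cord of uninjected mice 6 of 6 passed as higher in MC903, beside 12.2% of all genes, among them Sgk1 (464 against 81.1 cpm, 2.49 ± 0.28 log2), Fkbp5 (90.4 against 25.7 cpm, 1.81 ± 0.073) and Per1 (75.2 against 26.4 cpm, 1.53 ± 0.26). In aGr1 mice 4 of 6 were higher, beside 11.3%, with Sgk1 at 343 against 168 cpm, 1.04 ± 0.20 and Fkbp5 at 110.2 against 71.1 cpm, 0.63 ± 0.15. In TG 3 of 6 were higher in aGr1 mice, beside 1.88%, with Fkbp5 at 106 against 55.5 cpm, 0.95 ± 0.15, and 1 in PBS mice, beside 3.36%, Fkbp5 at 87.5 against 51.9 cpm, 0.75 ± 0.14. In skin 0 were higher and 2 lower at day 1 (beside 13% of all genes), 0 and 2 at day 5 (14.9%), 0 and 1 at day 8 (23.4%), 0 and 3 in TSLPR KO skin at day 8 (2.45%), 0 and 1 at day 12 (10%), and 0 and 4 in BLT1 KO skin (28.6%). In aGr1 skin (32.6%) Sgk1 was higher (181 against 63.3 cpm, 1.19 ± 0.17) and none lower. In BLT1 KO skin the lower genes were led by Tsc22d3 (151 against 664 cpm, -2.17 ± 0.20). These genes were singled out after their values were seen, and their part in the levels of Mt1 and Mt2 was not tested.

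Across the 61 skin libraries, the 9 genes fell into patterns of their own. On log2(cpm + 1) Slc39a10 and Slc30a1 had r = 0.95, Slc39a8 and Slc30a1 r = 0.90, Slc39a8 and Slc39a10 r = 0.88, Mt1 and Mt2 r = 0.90, and Slc39a14 and Mt2 r = 0.70, whereas Slc39a4 and Slc39a8 had r = 0.051. Of 17640 genes with a mean of at least 1 cpm, those most like Slc39a4 were Tspan2 (0.86), Xylt1 (0.81), Krt4 (0.80), Rybp (0.79) and Lonrf3 (0.78). Those most like Slc39a2 were Eva1a (0.85), Nsun2 (0.84), Atp13a4 (0.83), Crot (0.83) and Eif4e (0.83), and those most like Mt2 were Mt1 (0.90), Crispld2 (0.81), Cttn (0.80), Cyth3 (0.80) and E2f4 (0.80). These libraries share treatment, day and sample make-up, and the values describe likeness of level only.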

How the data were processed

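RNA was measured by poly(A) RNA-seq of 50 base single-end reads in 162 libraries. The authors aligned reads to mm10 with TopHat2 and Bowtie2 and counted them per gene with HTSeq; the deposited values are these raw counts, and the annotation release and strand setting are not given in the sources used here. Per library 6.15% to 21.5% of counted reads lay on no feature and 1.77% to 13.2% were ambiguous, and both were left out. Symbols came from a GENCODE release M21 table, which matched 45143 of 46078 identifiers. The 9 genes and the gene lists were chosen with earlier results of these data known.

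Groups were taken from the labels. Genes with at least 10 counts in total were fitted per comparison in edgeR 4.0.16 (R 4.3.3) with TMM scaling and the quasi-likelihood F test, adjusted by Benjamini-Hochberg over all genes, at 0.05 in skin and spinal cord and 0.1 in TG, with a cohort term for uninjected wild-type skin and TG at day 8. Tissues were fitted together in 1 model. Levels are cpm, and 3 counts was taken as the floor. Alternatives were DESeq2 1.42.0, RLE scaling, no count filter, the replicate number as a block, cohorts apart, ethanol libraries of days 1, 2 and 5 for skin against TG, and each library left out. Named list genes were the up to 3 of smallest p per direction in uninjected wild-type skin, and others named were chosen after their values were seen. Likeness used the 5 genes of highest r on log2(cpm + 1). One marker list is not reported here. The scripts were tested on simulated data.

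Same-numbered libraries deviated together in TG at day 5 (3 pairs, r from 0.168 to 0.371) and in TG of TSLPR KO mice at day 12 (4 pairs, r from 0.250 to 0.642), from the data alone, and the blocked counts stand beside those results. No 2 libraries were identical. Depth sets the precision of the low genes, and intervals of counting error do not cover differences between mice.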

Additional observations from a re-analysis of the deposited data

Results flagged for a closer look

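Of 156 tests for a single library far from the others, each of 1 gene in 1 group of libraries, 14 found one, where chance gives about 1 in 20. In skin, Slc39a4 reached 6.20 cpm in MC903 replicate 2 of cohort B at day 8, against 2.07 to 3.01 cpm in the others, and Mt1 reached 352 cpm in replicate 3 of MC903 TSLPR KO skin at day 12, against 129.6 to 154 cpm. Ethanol replicate 1 of day 1 skin stood apart for 3 genes, with 258 cpm of Slc30a1 against 188 to 198 cpm, 90.02 cpm of Mt1 against 130.1 to 134 cpm and 87.7 cpm of Mt2 against 159.7 to 166 cpm.

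In TG, MC903 replicate 1 of day 1 held 12.7 cpm of Slc39a8 against 3.83 to 5.02 cpm and 5.58 cpm of Mt4 against 0.259 to 1.07 cpm. Basal keratinocyte markers summed to 137 cpm in that library against 20.4 to 34.01 cpm, and salivary gland markers to 3785 cpm, and their part was not tested. The remaining TG libraries were MC903 replicate 2 of cohort B at day 8 with 19.2 cpm of Slc30a1 against 13.6 to 14.8 cpm, ethanol replicate 1 of cohort A at day 8 with 49.2 cpm of Mt2 against 32.1 to 33.9 cpm, MC903 PBS replicate 4 with 26.4 cpm of Slc39a14 against 30.5 to 30.9 cpm, and ethanol TSLPR KO replicate 3 of day 12 with 30.03 cpm of Slc39a14 against 27.4 to 27.5 cpm. In spinal cord, Slc39a10 lay at 91.3 cpm in MC903 aGr1 replicate 3 against 68.1 to 77.2 cpm and at 69.9 cpm in ethanol aGr1 replicate 1 against 77.05 to 80.5 cpm, and Slc39a2 at 0.982 cpm in MC903 replicate 4 of uninjected mice against 2.49 to 2.69 cpm.

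Some MC903 effects had opposite signs in 2 groups without overlap in either, and the differences were not tested. Between day 1 and day 8 of wild-type skin, the log2 fold changes differed by 2.35 for Slc39a10, 1.64 for Slc30a1 and 2.86 for Mt4. Slc30a1 differed by 1.54 between day 5 and day 8, and Slc39a10 by -2.36 between wild-type and BLT1 KO skin at day 8.

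In the libraries labelled wild-type day 12, which were not compared, the tissue markers went against the label in 12 of 18, and in 0 of the 144 other libraries. Of the TG libraries labelled MC903, 5 held skin markers, and Slc39a4 lay there at 0.942 to 7.96 cpm. Cyp24a1 did not follow the treatment labels either. In those TG libraries it lay at 4308, 5268 and 7094 cpm in replicates 1 to 3, and at 11.3 and 5.12 cpm in replicates 4 and 5. Skin libraries labelled ethanol held 7459 cpm (replicate 2) and 5258 cpm (replicate 5). The Slc39a4 range therefore cannot be read as a level of MC903 skin.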

How the results depend on the processing

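No log2 fold change of the 9 genes that passed the threshold changed sign under the alternatives run, and 882 values under other settings and 1632 with 1 library left out moved by less than the spread between replicates or, where tested, kept their direction and their side of the threshold. Of the rest, 14 moved by more than that spread, 7 no longer passed and 5 newly passed under other settings, and 68, 22 and 4 with 1 library left out. Values that had not passed could change sign, as Mt2 did in TG at day 2. How many of the 9 genes passed moved in these cases. With DESeq2, 1 passed in skin at day 2 (Slc39a4), 1 in TG at day 5 (Mt1) and 1 in PBS spinal cord (Mt2), each from 0. Without the count filter, 1 passed in skin at day 2 (Slc39a4), 1 in TG at day 2 (Mt1), 1 at day 5 (Mt1), 2 at day 8 (Mt1 and Mt2) and 1 in TSLPR KO TG at day 8 (Mt4), and 1 of 2 remained in TG for aGr1 against PBS (Slc30a1). In skin at day 8 the count was 5, from 8, within cohort A alone and 5 within cohort B alone. With the replicate block, in libraries that outside the TG pairs above share only a number, the count was 3 in skin at day 2, 0 in PBS skin, 0 in TSLPR KO skin at day 12, 2 in PBS spinal cord, 4 in skin and 1 in TG for aGr1 against PBS and 5 for spinal cord against TG, with the cause not tested. A crossed pairing of PBS spinal cord, chosen after seeing the data, gave 2 genes of the 9 and 955 of all genes, against 224 with the numbers as given.

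With 1 library left out, the counts of the 9 genes ran from 3 to 6 in skin at day 1, 0 to 1 at day 2, 4 to 5 at day 5, 6 to 8 at day 8, 0 to 3 in PBS, 4 to 7 in aGr1, 4 to 5 in BLT1 KO and 1 to 4 in TSLPR KO skin at day 12, and stayed at 0 in TSLPR KO skin at day 8. In TG they stayed at 0 at days 1, 5 and 8, at 2 in aGr1 mice, and ran from 0 to 4 at day 2, 2 to 4 in PBS, 0 to 1 in TSLPR KO mice at day 8 (Mt4 without MC903 replicate 2) and 0 to 1 at day 12. In spinal cord they were 4, 1 to 5 and 2 for uninjected, PBS and aGr1 mice. For aGr1 against PBS they were 0 in skin, 1 to 4 in TG and 4 in spinal cord, and for the tissues 9, 5 to 8 and 8. Where this left 1 library in a group, it was assumed to vary like the rest.

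Under other settings, genes called over the whole table moved by more than 1.5 times as follows. In skin, day 1 went from 3213 to 1795 with the block, day 2 from 0 to 280 with DESeq2, 27 without the filter and 876 with the block, and day 8 from 6125 to 2258 in cohort B. PBS went from 973 to 2116 with DESeq2 and 641 with the block, TSLPR KO day 8 from 594 to 1313, 1401 without the filter and 1274 with the block, and day 12 from 2550 to 4040 and 548. In TG, DESeq2 gave 78, 65, 49 and 210 genes at days 1, 2, 5 and 8, no filter 177, 30 and 493 at days 2, 5 and 8, and the block 16 at day 2, while cohort A alone gave 63, cohort B 1 and no cohort term 5 at day 8. TG of PBS mice went from 796 to 1271 without the filter and 3479 with the block, aGr1 from 456 to 887 with DESeq2, and TSLPR KO day 8 from 0 to 185, 1063 and 480, and day 12 from 79 to 260 with DESeq2. In spinal cord the block gave 1747 from 3118 in uninjected and 1993 from 3132 in aGr1 mice, and PBS mice went from 0 to 176 with DESeq2 and 80 without the filter. For aGr1 against PBS, skin went from 37 to 1149 with DESeq2, 82 without the filter and 1557 with the block, TG from 3622 to 2144 and spinal cord from 7828 to 3928 with the block. Leaving out 1 library moved 77 counts over the whole table by more than 1.5 times and left 137 within that limit. The counts ran from 1304 to 5092 in skin at day 1 and from 1887 to 4960 in spinal cord of uninjected mice. In TG for aGr1 against PBS they ran from 1049 to 8029. In skin at day 8 they stayed between 4883 and 6445. The percentages of all genes given above come from fits with all libraries, and some move with a single library. Among single tests, skin against TG gave 0.65 for Mt1 with the block, no longer past the threshold. Depth limited Slc39a4 and Mt4 outside skin.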
